A study of Homo sapiens with 6 samples.

Results

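The 10 genes described here belong to the hypoxia-inducible factor (HIF) pathway. They are the HIF alpha subunits HIF1A and EPAS1, and the HIF targets EGLN3, CA9, CA12, BNIP3, BNIP3L, NDRG1, ADM and ANKRD37. They were chosen by gene symbol, and each was found among the 54644 gene rows of the deposited tables. mRNA was sequenced from SKBR3 cells, an established HER2-positive human breast adenocarcinoma line, in 6 libraries. The 3 control libraries came from cells infected with lentivirus carrying the empty pLVX vector, and the 3 CTTN libraries from cells infected with pLVX-CTTN, which adds a cDNA of CTTN, the gene of the actin-binding protein cortactin. The design text describes both groups as stable cells kept after puromycin selection. The extraction notes also hold the word tumors, which no other label does, and the libraries are read here as cultured cells, so the data describe 1 line with a gene overexpressed from a viral vector. The labels name no hypoxic treatment for either group. The libraries of a group are labelled biological replicates without saying what was kept separate, so the p-values measure the spread between these libraries. The comparison asks which mRNA levels differ between cells with extra CTTN and cells with the vector.

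HIF is a transcription factor made of an oxygen-sensitive alpha subunit (HIF-1α from HIF1A or HIF-2α from EPAS1) and the stable beta subunit ARNT. With oxygen present, prolyl hydroxylases of the EGLN family mark the alpha subunit for the VHL ubiquitin ligase, which sends it to degradation, so its activity is set mostly at the protein level. When oxygen is low the pair binds short DNA elements with the core ACGTG or GCGTG and raises genes of pH control, mitophagy, glucose use, blood vessel growth and its own feedback. These data hold mRNA only, and the HIF proteins were not measured. In bulk RNA, fewer cells with a transcript and less of it per cell cannot be told apart.

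A raised CTTN level was seen in each CTTN library, in values that do not separate the added CTTN from the cells' own. The deposited FPKM (fragments scaled to transcript length and library size) of CTTN was 263, 329 and 180 in CTTN libraries 1 to 3, against 104, 108 and 108 in control libraries 1 to 3. The groups did not overlap, and CTTN 3 was the lowest of its group. The log2 fold change was 1.35 ± 0.22 (SE, n = 3 against 3), with an adjusted p of 0.0248 in edgeR's quasi-likelihood test with Benjamini-Hochberg adjustment over all genes tested. The call was lost without CTTN 1 (adjusted p of 0.121 in edgeR) and without control 1, 2 or 3 (0.136, 0.154 and 0.141), and kept in 8 of 15 alternatives, with adjusted p from 1.57e-31 to 0.154. Some of the fits that kept the CTTN call were not planned. Most of the CTTN level lay in the isoform ENST00000301843, at 234, 281 and 150 FPKM in the CTTN libraries and between 62.5 and 65.6 FPKM in the controls.

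The libraries were of like depth but not of like make-up. They held 35583128, 36531323 and 35478949 fragments in genes in the CTTN group and 34887079, 41279658 and 37751125 in the control group. FPKM summed over all gene rows was 704018, 605260 and 852256 in CTTN 1 to 3. In control 1 to 3 this sum was 624680, 609489 and 603634. FPKM thus ran higher in CTTN 3 and CTTN 1 in general, which also enters the FPKM gaps of single genes below. Across the 14409 genes tested, log2 CPM (counts scaled to library size with edgeR's TMM factors, and not to length) of control libraries correlated at 0.9953 to 0.9963 with each other, and those of CTTN libraries at 0.9755 to 0.9913. CTTN 3 stood apart, with correlations of 0.9677 to 0.9723 to the controls, while CTTN 2 was the CTTN library closest to them (0.9901 to 0.9911).

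The distance followed transcript length. When genes were split into 5 bins of length, those with a median of 930 bases lay 0.66 above the control mean in CTTN 3, 0.30 above it in CTTN 1 and 0.02 above it in CTTN 2 (median log2 difference). Those with a median of 5124 bases lay at -0.62 in CTTN 3, -0.32 in CTTN 1 and -0.01 in CTTN 2. No control library passed 0.05 in absolute value in the longest bin or 0.06 in the shortest. Fragments of long transcripts were scarcer in CTTN 3 and CTTN 1, so this trend cannot be fully told apart from the group. The members and the called genes are therefore also given without CTTN 3, which was planned, and in 2 fits chosen after seeing the data: CTTN 2 alone against the controls, and offsets that take out each library's trend with length. The fit on CTTN 2 alone takes its spread from the controls, so its p-values hold none of the wider spread of the CTTN group.

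**Figure D1:**
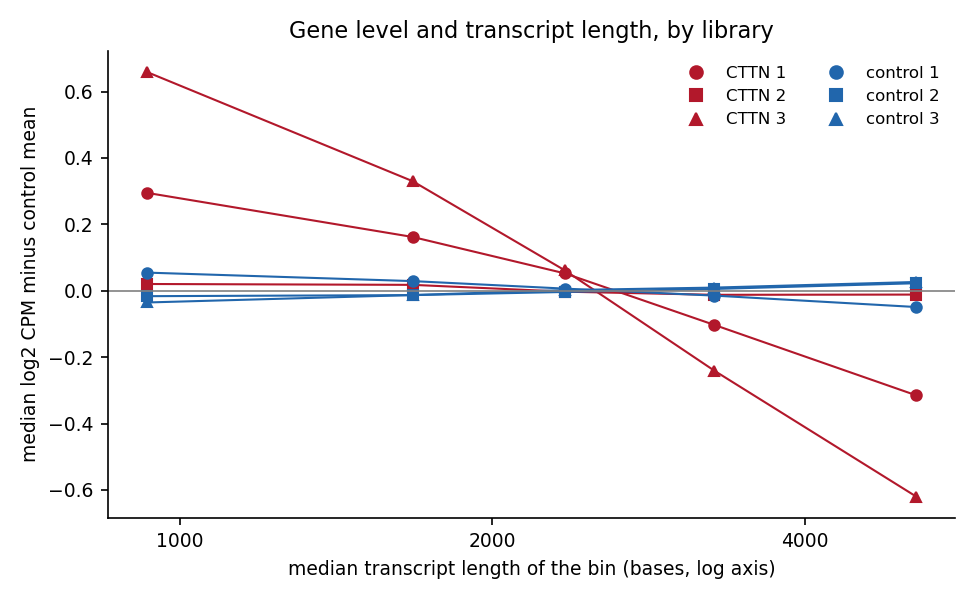
Median log2 CPM of each library minus the control mean (vertical axis) for genes in 5 bins of transcript length (horizontal axis, bases, log scale). CTTN 3 and CTTN 1 run from 0.66 and 0.30 in the shortest bin to -0.62 and -0.32 in the longest, while CTTN 2 lies among the controls.

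The cells had the markers of their label. ERBB2, the HER2 receptor gene, lay between 1644 and 1790.3 FPKM in all 6 libraries, and the 6 listed markers of HER2-positive luminal cells (ERBB2, GRB7, KRT8, KRT18, KRT19 and EPCAM) summed to 7697, 6249.6 and 9457 FPKM in CTTN 1 to 3 and to 6966, 6751 and 6796 FPKM in the controls, with KRT19 the most abundant. None of the 6 was called in edgeR, at an unadjusted p below 0.05 there was 1 (KRT19, higher), and DESeq2 called none. With length offsets ERBB2 and KRT19 were called higher and KRT18 lower in edgeR, against 9.86% and 8.54% of all genes, and with CTTN 2 alone KRT8, KRT18 and EPCAM were called lower, against 7.4%. Of the 4 fibroblast markers, COL1A1 made up most of a sum of 2.89 to 4.44 FPKM, and COL1A2, DCN and LUM were at 0 in some libraries. The 3 leukocyte markers summed to 2.88 to 4.73 FPKM, nearly all from isoforms of CD68, with CD3E at 0 in 1 library.

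Of the 3 endothelial markers, CDH5, the cadherin of endothelial junctions, was at 1.58, 2.02 and 1.43 FPKM in CTTN 1 to 3 and at 3.96, 4.45 and 4.03 FPKM in the controls, without overlap. Its log2 fold change was -1.49 ± 0.17 (SE) with an adjusted p of 0.00843 in edgeR, -1.35 without CTTN 3, -1.15 with CTTN 2 alone and -1.38 with length offsets. The defining endothelial genes PECAM1 and VWF stayed at or below 0.022 and 0.166 FPKM in every library. VWF passed the filter, with a log2 fold change of -0.69 that was not called in edgeR. Both tested markers, CDH5 and VWF, were lower at an unadjusted p below 0.05 in edgeR, as were 14.0% of all genes. In limma 1 of the list was called lower, against 0.473% of its genes. The summed level of the list was 1.69, 2.17 and 1.55 FPKM in the CTTN libraries and 4.12, 4.62 and 4.19 FPKM in the controls.

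CA12 was the only member called in the main comparison, and it was lower in CTTN cells. In edgeR's quasi-likelihood test at an adjusted p below 0.05, 1 of the 9 members that passed the filter on low counts was called lower (CA12), against 2.03% of all genes tested (293 of 14409), and 0 were called higher, against 2.43% (350 of 14409). At an unadjusted p below 0.05 there were 3 members, CA12 lower and BNIP3 and ADM higher, where 16.2% of all genes tested (2340) were higher and 14.0% (2012) lower. DESeq2 also called CA12 alone, against 6.94% of its genes higher and 6.57% lower (959 and 908 of 13813), while limma on log2(FPKM + 1) called 0 members, against 0.66% of its genes higher and 0.473% lower (81 and 58 of 12275). With length offsets edgeR called BNIP3 higher and CA12 lower, against 9.86% and 8.54% of all genes. With CTTN 2 alone it called EPAS1 and NDRG1 higher and CA12 and EGLN3 lower, against 7.53% and 7.4%. Without CTTN 3 it called CA12 alone, against 4.56% higher and 3.99% lower. Without CTTN 2 it called 5 of the 9, BNIP3 and ADM higher and HIF1A, EPAS1 and CA12 lower, against 22.9% and 24.2%, so calls in that fit are common. The median log2 fold change of the 9 was -0.08, against 0.01 over all genes tested, and 0.04 with length offsets, so its sign depends on the fit. CA9 did not pass the filter, so these counts do not cover all 10 members.

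In CPM the groups did not overlap for 6 of the 9. BNIP3, NDRG1 and ADM had every CTTN library above every control library, as did 19.4% of all genes tested, and HIF1A, CA12 and EGLN3 had every CTTN library below, as did also 19.4%. The CTTN libraries spread more widely than the controls in 8 of the 9 (all but BNIP3L), and over all genes the median SD of log2 CPM was 0.24 in the CTTN group and 0.08 in the control group. CTTN 2 was the CTTN library nearest to the control mean for 5 of the 9 members, and for 62.4% of all genes tested.

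**Figure D2:**
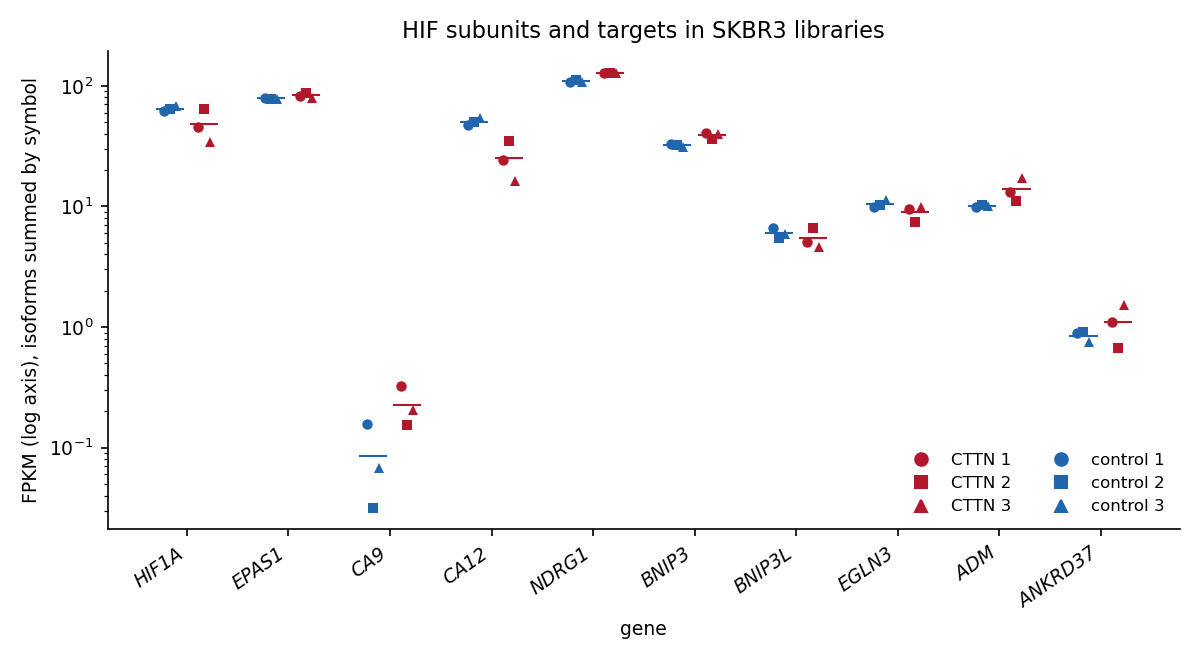
FPKM (log axis) of the 10 members in each library, from isoforms summed by gene symbol. Points are libraries and short lines group means. CA12 lies between 16.4 and 34.8 FPKM in the CTTN libraries and between 47.1 and 53.7 FPKM in the controls, and CA9 stays below 0.33 FPKM in every library.

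Taken by level, NDRG1 was the most abundant member in control cells (mean 109 ± 2.58 FPKM, SD, n = 3), followed by EPAS1 (78.7 ± 0.82) and HIF1A (64.6 ± 3.29, isoforms of the symbol). CA12 (50.4 ± 3.30) and BNIP3 (32.0 ± 0.775) came next. EGLN3 (10.4 ± 0.70) and ADM (10.04 ± 0.136) lay within the spread of EGLN3, and BNIP3L (5.98 ± 0.576), ANKRD37 (0.849 ± 0.0905) and CA9 (0.0858 ± 0.0651) followed. In CTTN cells NDRG1, EPAS1 (83.4 ± 4.08) and HIF1A (48.2 ± 15.3) kept their places, while BNIP3 (39.0 ± 2.33) stood above CA12 (25.2 ± 9.25) and ADM (13.8 ± 3.04) above EGLN3 (8.93 ± 1.27). BNIP3 lay within the spread of HIF1A there.

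HIF1A, the gene of HIF-1α, shares its row of the gene table (GRCh38, chr14:61681041-61796428) with SNAPC1 and AL137129.1, so its own isoforms were also summed. They gave 45.8, 64.5 and 34.2 FPKM in CTTN 1 to 3 and 61.3, 64.5 and 67.9 FPKM in control 1 to 3. CTTN 2 was at the level of the controls, and CTTN 1 and CTTN 3 were below all of them. The log2 fold change of the isoform sum was -0.43 ± 0.21 (SE) and that of the shared row -0.40 ± 0.19, with adjusted p of 0.212 and 0.185 in edgeR, so HIF1A was not called. The shared row was at -0.22 without CTTN 3 and at -0.07 with CTTN 2 alone, was called without CTTN 2 (-0.61, adjusted p of 0.00589 in edgeR), and was at -0.32 with length offsets (adjusted p of 0.111).

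EPAS1, the gene of HIF-2α (chr2:46293667-46386703), gave opposite directions on its scales. Its FPKM was 83.0, 87.7 and 79.6 in the CTTN libraries and 79.7, 78.3 and 78.2 in the controls, whereas its CPM was 334, 431 and 263 in the CTTN libraries and 373, 371 and 387 in the controls. On both scales the groups overlapped. The log2 fold change of the counts was -0.14 ± 0.17 (SE; adjusted p of 0.574 in edgeR). It was 0.02 without CTTN 3, 0.19 with CTTN 2 alone (adjusted p of 0.0337 in edgeR) and 0.09 with length offsets, and -0.35 without CTTN 2 (adjusted p of 0.0265).

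Isoform estimates show where these scales part. The full-length EPAS1 isoform ENST00000263734, of 5166 bases, made up 49.3%, 89.9% and 14.0% of the gene's FPKM in CTTN 1 to 3 and 76.4%, 84.6% and 89.7% in control 1 to 3. The shorter ENST00000468530, of 3063 bases, made up 29.3%, 4.47% and 64.0% in the CTTN libraries and 12.7%, 8.46% and 5.02% in the controls. CTTN 3 and, less so, CTTN 1 thus had less of the long isoform and more of the short, and CTTN 2 lay at the upper end of the controls for the long one. A gene's FPKM is its fragments divided by the lengths of the isoforms they were assigned to, so the same fragments give a higher FPKM when shorter isoforms take them up. Isoform values are estimates from shared fragments and were not tested.

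**Figure D3:**
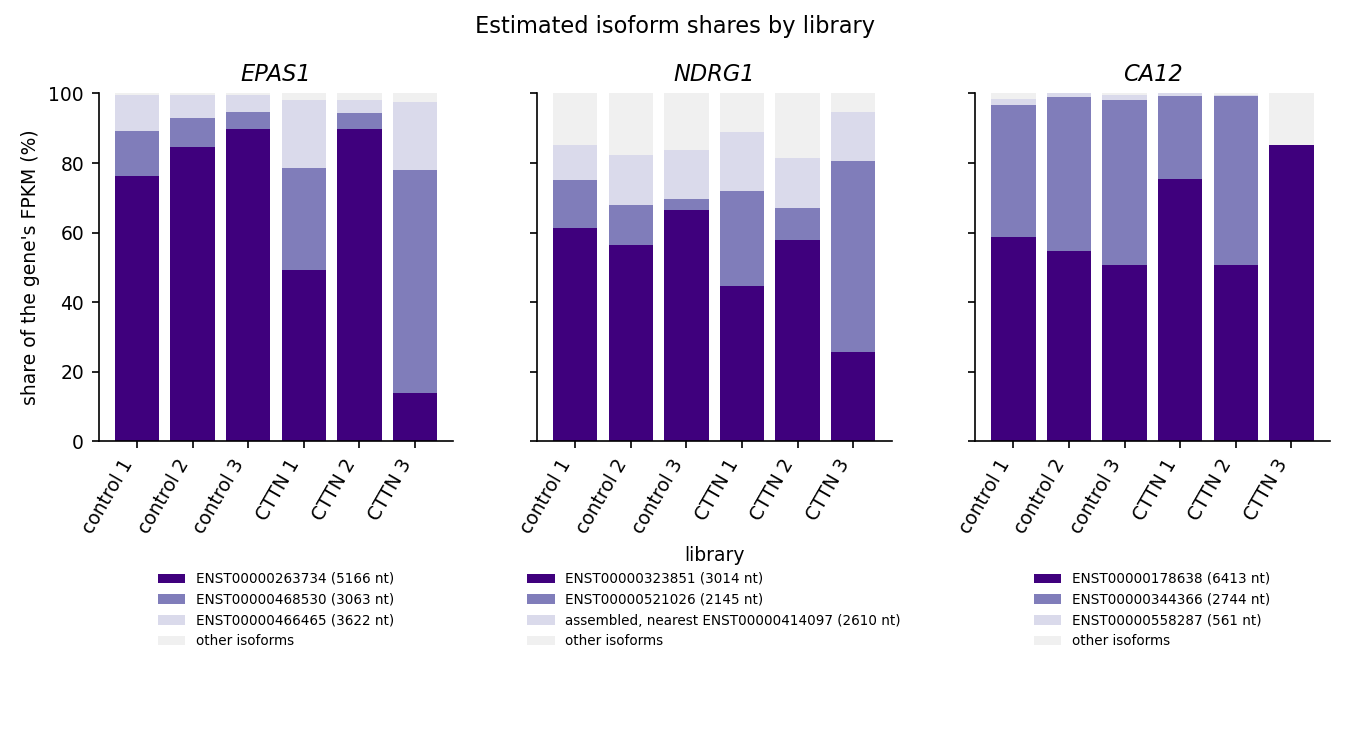
Share of each gene's FPKM (vertical axis, percent) held by its 3 most abundant isoforms and the rest in each library, for EPAS1, NDRG1 and CA12. The longest EPAS1 isoform falls to 14.0% in CTTN 3 and the shorter ones take its place, and the leading NDRG1 isoform falls to 25.9% in the same library. The longest CA12 isoform instead rises to 75.5% in CTTN 1 and 85.3% in CTTN 3, against 50.7% to 58.75% in the controls.

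EGLN3, a prolyl hydroxylase that is itself a HIF target and so part of the feedback (chr14:33924231-34462774), was at 9.43, 7.49 and 9.87 FPKM in CTTN 1 to 3 and at 9.83, 10.3 and 11.2 FPKM in the controls. CTTN 2 was the lowest library, and CTTN 3 was level with the lowest control. EGLN3 had a log2 fold change of -0.24 ± 0.13 (SE; adjusted p of 0.247 in edgeR). It was -0.11 without CTTN 2 (0.329), -0.33 without CTTN 3 (0.124), -0.55 with CTTN 2 alone (2.54e-05) and -0.23 with length offsets (0.182). A start-site group of EGLN3 with isoforms of up to 1004 bases was at 0.376, 0.799 and 0.991 FPKM in the CTTN libraries. It had 0 fragments in all 3 controls. This start-site group passed the filter on low counts only through the CTTN libraries, so its test, which gave no call, decides nothing.

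CA9 and CA12 encode carbonic anhydrases of the cell surface, which turn carbon dioxide into bicarbonate and protons and take part in pH control. CA9 is among the most sensitive HIF targets in many tumours, and CA12 is also known as an estrogen-responsive gene of luminal breast cells. Their promoters are shown because CA12 is the called member and CA9 is its close relative that was almost silent here. Those of BNIP3 and ANKRD37 follow for comparison, as the members whose windows held most HIF cores. Each window runs from 250 bases before to 50 bases after the start site in RefSeq (build GRCh38.p14), 5′ to 3′ along the gene, at chr15:63381797-63382096 (minus strand), chr9:35673678-35673977 (plus), chr10:131981874-131982173 (minus) and chr4:185396591-185396890 (plus). Capitals mark matches to ACGTG or GCGTG on either strand, the reverse strand reading CACGT or CACGC, and CACGTG is a match on both.
CA12: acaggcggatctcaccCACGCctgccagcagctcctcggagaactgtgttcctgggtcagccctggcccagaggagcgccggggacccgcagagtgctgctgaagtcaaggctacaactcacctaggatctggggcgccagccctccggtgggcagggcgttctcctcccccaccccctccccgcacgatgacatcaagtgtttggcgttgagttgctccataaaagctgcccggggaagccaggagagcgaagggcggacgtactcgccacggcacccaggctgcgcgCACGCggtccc
CA9: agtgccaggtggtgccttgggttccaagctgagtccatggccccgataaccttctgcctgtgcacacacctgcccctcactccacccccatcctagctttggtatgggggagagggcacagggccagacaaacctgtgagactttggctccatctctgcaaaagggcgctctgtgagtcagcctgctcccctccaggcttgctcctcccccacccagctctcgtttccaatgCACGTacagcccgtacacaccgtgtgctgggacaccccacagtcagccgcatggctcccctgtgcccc
BNIP3: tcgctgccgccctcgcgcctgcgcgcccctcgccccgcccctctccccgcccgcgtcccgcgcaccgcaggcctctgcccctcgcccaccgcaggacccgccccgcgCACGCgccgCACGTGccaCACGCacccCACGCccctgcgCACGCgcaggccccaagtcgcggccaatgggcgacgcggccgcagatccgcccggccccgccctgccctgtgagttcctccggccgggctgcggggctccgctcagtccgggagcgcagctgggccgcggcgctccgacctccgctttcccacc
ANKRD37: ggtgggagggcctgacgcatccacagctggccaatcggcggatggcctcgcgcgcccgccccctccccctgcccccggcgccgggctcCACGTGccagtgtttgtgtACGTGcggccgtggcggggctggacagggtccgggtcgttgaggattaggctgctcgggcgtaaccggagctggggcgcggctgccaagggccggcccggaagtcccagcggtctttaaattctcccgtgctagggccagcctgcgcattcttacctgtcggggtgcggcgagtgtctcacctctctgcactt

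Windows of 8 members were read. CA12 had 2 matches, both to GCGTG, CA9 had 1 to ACGTG, BNIP3 had 2 to ACGTG and 4 to GCGTG, and ANKRD37 had 3 to ACGTG. EPAS1 and ADM each had 1 match to GCGTG, HIF1A had 1 in the first of its 2 windows, and EGLN3 had none, which says only that the letters are not in its window. Of all 35116 promoters of this length, 21.4% held ACGTG, 36.5% held GCGTG and 48.4% held either. A match describes letters in a window and says nothing of binding here.

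CA12 (chr15:63321378-63382161) was at 24.4, 34.8 and 16.4 FPKM in CTTN 1 to 3 and at 47.1, 50.2 and 53.7 FPKM in control 1 to 3. All CTTN libraries were below all controls, with CTTN 3 lowest and CTTN 2 highest of their group. The log2 fold change was -0.83 ± 0.14 (SE; 95% interval -1.16 to -0.50), with an adjusted p of 0.0273 in edgeR, which is 1.78-fold lower in CTTN cells. Its transcripts are long, with a weighted mean of 4899 bases, so CA12 lies where CTTN 1 and CTTN 3 were low in general.

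The CA12 difference was smaller without CTTN 3, with CTTN 2 alone and with length offsets, and not without CTTN 1 (-0.83). It was -0.69 without CTTN 3 (adjusted p of 0.00305 in edgeR) and -0.56 with length offsets (0.000205), both called. CTTN 2 alone lay at -0.58, a value without group spread, where the SD of log2 CPM of CA12 was 0.28 in the CTTN group and 0.05 in the controls. Over the 15 alternatives run CA12 lay between -1.06 and -0.56, with adjusted p from 2.2e-09 (CTTN 2 alone) to 0.157. The call was lost in limma on FPKM, without CTTN 1 (adjusted p of 0.141 in edgeR) and without control 1, 2 or 3 (0.125, 0.157 and 0.150), where only 10 to 20 genes of the whole table were called higher and 5 to 13 lower.

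The leading CA12 isoforms were described and not tested. ENST00000178638, of 6413 bases, was at 18.4, 17.7 and 14.0 FPKM in the CTTN libraries and at 27.7, 27.5 and 27.2 FPKM in the controls. Its CTTN libraries were all below the controls, with CTTN 1 and CTTN 2 nearly level. ENST00000344366, of 2744 bases, was at 5.77, 16.8 and 0.00 FPKM in the CTTN libraries and at 17.9, 22.1 and 25.5 FPKM in the controls, with a wide spread among CTTN libraries. The longer isoform held 75.5%, 50.8% and 85.3% of the gene's FPKM in CTTN 1 to 3. In control 1 to 3 it held 58.75%, 54.8% and 50.7%. In CTTN 1 and CTTN 3 the shares thus moved towards the longer isoform, opposite to EPAS1. The start-site group of the long isoform had a log2 fold change of -0.63 ± 0.07 (SE; adjusted p of 0.328 in edgeR over start-site groups), and -0.64 with CTTN 2 alone. That of the shorter isoform was -1.54 ± 1.59 (SE; adjusted p of 0.67), and -0.39 with CTTN 2 alone, and neither group was called.

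CA9 was close to the limit of detection. It had 7, 7 and 10 fragments in CTTN 1 to 3 and 3, 2 and 4 in control 1 to 3, or 0.322, 0.154 and 0.207 FPKM against 0.158, 0.0318 and 0.0674 FPKM. The fragment counts did not overlap, but the FPKM did. With no filter on low counts its adjusted p was 0.183 in edgeR, and so few fragments allow no finer statement.

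BNIP3 and BNIP3L encode related proteins of the outer mitochondrial membrane that act as receptors for mitophagy. BNIP3 (chr10:131966455-131982013) was at 40.7, 36.4 and 40.1 FPKM in CTTN 1 to 3 and at 32.7, 32.0 and 31.2 FPKM in control 1 to 3. The groups did not overlap, and the controls spread little. BNIP3 had a log2 fold change of 0.36 ± 0.12 (SE), with an unadjusted p of 0.0184 and an adjusted p of 0.114 in edgeR. With length offsets it was 0.29 and called (adjusted p of 0.038 in edgeR), without CTTN 2 it was 0.47 and called (0.00325), without CTTN 3 it was 0.26 (0.121), and with CTTN 2 alone it was 0.11 (0.371). All 6 BNIP3 isoforms share 1 start-site group.

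BNIP3L was lower in level, at 5.09, 6.65 and 4.58 FPKM in the CTTN libraries and 6.59, 5.44 and 5.93 FPKM in the controls. The groups overlapped, with CTTN 2 the highest library of all. BNIP3L had a log2 fold change of -0.08 ± 0.10 (SE; 95% interval -0.31 to 0.15; adjusted p of 0.565 in edgeR), -0.05 without CTTN 3, -0.07 with CTTN 2 alone and 0.04 with length offsets. A BNIP3L start-site group with isoforms of up to 3433 bases had 0 fragments in all CTTN libraries. It was at 0.722, 0.611 and 0.517 FPKM in the controls. Only through the controls did it pass the filter on low counts, so its test, which gave no call, decides nothing.

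NDRG1, a stress-responsive gene that is a common readout of hypoxia, was steady within each group. It was at 128, 129 and 126 FPKM in CTTN 1 to 3 and at 108, 112 and 107 FPKM in control 1 to 3, without overlap. FPKM summed over all genes was also higher in CTTN 1 and CTTN 3 than in the controls. In CPM the gap was narrower, with 292, 308 and 275 in the CTTN libraries and 264, 263 and 268 in the controls. NDRG1 had a log2 fold change of 0.14 ± 0.08 (SE; adjusted p of 0.245 in edgeR), 0.09 without CTTN 2 (0.351), 0.18 without CTTN 3 (0.143), 0.22 with CTTN 2 alone (0.0148) and 0.14 with length offsets (0.0831).

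Within NDRG1 the isoform shares moved as in EPAS1. ENST00000323851, of 3014 bases, held 44.7%, 57.8% and 25.9% of the gene's FPKM in CTTN 1 to 3 and 61.3%, 56.4% and 66.5% in the controls. The shorter ENST00000521026, of 2145 bases, held 27.2%, 9.28% and 54.6% in the CTTN libraries and 13.8%, 11.5% and 3.10% in the controls. CTTN 2 was again at the level of the controls, so the even FPKM of the gene covers uneven isoforms.

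ADM, which encodes the vasodilator peptide adrenomedullin (chr11:10304680-10307397), was at 13.2, 11.2 and 17.2 FPKM in CTTN 1 to 3 and at 9.90, 10.17 and 10.05 FPKM in control 1 to 3. All CTTN libraries were above all controls, and CTTN 3 was highest. Its log2 fold change was 0.44 ± 0.15 (SE), with an unadjusted p of 0.0208 and an adjusted p of 0.12 in edgeR. It was 0.27 without CTTN 3, 0.15 with CTTN 2 alone (adjusted p of 0.37) and 0.30 with length offsets (0.0568), and it was called without CTTN 2 (0.56, adjusted p of 0.00538). An ADM start-site group with isoforms of up to 1968 bases was at 2.48, 0.904 and 1.44 FPKM in the CTTN libraries. In the controls it was at or below 0.0315 FPKM. Only the CTTN libraries brought it past the filter on low counts, so its test, which gave no call, decides nothing.

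ANKRD37, an ankyrin repeat gene with a strong HIF response in many lines (chr4:185396021-185425985), was near 1 FPKM. It was at 1.10, 0.674 and 1.53 FPKM in the CTTN libraries and 0.892, 0.911 and 0.745 FPKM in the controls, which overlapped. CTTN 3 was highest and CTTN 2 lowest of the 6. ANKRD37 had a log2 fold change of 0.28 ± 0.27 (SE; adjusted p of 0.472 in edgeR), 0.45 without CTTN 2, 0.03 without CTTN 3, -0.14 with CTTN 2 alone and -0.03 with length offsets.

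**Figure D4:**
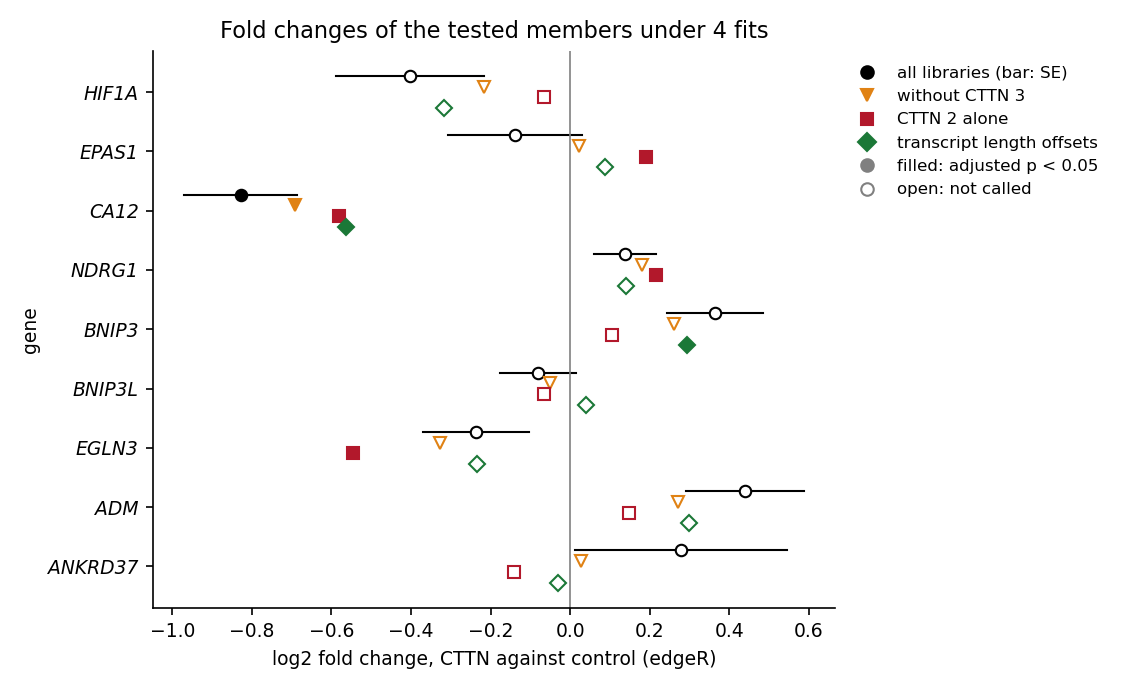
Log2 fold change of CTTN against control (horizontal axis) for the 9 tested members (vertical axis) in 4 edgeR fits, filled where the adjusted p was below 0.05, with SE bars for all libraries. CA12 is filled in all 4 fits, from -0.83 to -0.56, while EPAS1, BNIP3L and ANKRD37 lie on either side of 0.

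The start-site groups, which sum isoforms that begin at the same site, gave no call. Of 67 start-site groups of the members, 30 passed the filter and 0 were called in either direction in edgeR, where the background over 35799 groups was also 0%. At an unadjusted p below 0.05 in edgeR there were 6 among the members. Of these, 4 were higher (of ADM, BNIP3, EGLN3 and NDRG1) and 2 lower (of BNIP3L and CA12), against 6.4% and 4.02% of all start-site groups (2292 and 1440). Those of ADM, EGLN3 and BNIP3L had few or no fragments on one side and passed the filter through the other side only. The filter set their direction, so these counts are not read against the background. The counts of these groups are estimates from shared fragments, so their spread also holds the error of assigning fragments.

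Among the 16 listed partners and regulators of HIF, all passed the filter, with 0 called higher and 1 called lower (CUL2) in edgeR, against 2.43% and 2.03% of all genes. At an unadjusted p below 0.05 there were 4 (ARNT and ELOB higher, EGLN1 and CUL2 lower), against 16.2% of all genes higher and 14.0% lower. DESeq2 called 3, ELOB higher and EGLN1 and CUL2 lower, against 6.94% and 6.57% of its genes. The median log2 fold change of the list was 0.01, against 0.01 over all genes, and -0.02 with length offsets. CUL2, the scaffold of the VHL ubiquitin ligase, was at 61.3, 73.1 and 46.0 FPKM in CTTN 1 to 3 and at 82.5, 87.2 and 89.1 FPKM in the controls. The groups did not overlap, and the log2 fold change was -0.36 ± 0.08 (SE; adjusted p of 0.0497 in edgeR), -0.31 without CTTN 3, -0.31 with CTTN 2 alone and -0.22 with length offsets. Without CTTN 1 and without control 1, 2 or 3 the call of CUL2 was lost, at adjusted p of 0.209, 0.194, 0.232 and 0.211 in edgeR.

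The other parts of the VHL ligase have short transcripts, apart from VHL. The short adaptor transcript ELOB, of 662 bases, was at 294, 204 and 511 FPKM in the CTTN libraries and 197, 192 and 179 FPKM in the controls. ELOC was at 316, 260 and 420 FPKM against 277, 260 and 253 FPKM, and the ring finger subunit RBX1 at 71.1, 53.5 and 97.7 FPKM against 59.4, 55.9 and 55.5 FPKM. In each, CTTN 3 was highest and CTTN 2 was near the controls, and edgeR called none with all libraries (log2 fold changes of 0.76, 0.40 and 0.44). ELOB was called in DESeq2 (adjusted p of 0.0384) and in edgeR with length offsets (0.31, 0.0498), where ELOC was at 0.05 and RBX1 at 0.13. Without CTTN 3 they were at 0.37, 0.15 and 0.14. Without CTTN 2 all 3 were called, at adjusted p of 0.00329, 0.00775 and 0.00604 in edgeR, in a fit that called 22.9% of all genes higher and 24.2% lower. The receptor subunit VHL itself had a log2 fold change of -0.22 (adjusted p of 0.272 in edgeR), of -0.33 without CTTN 2 (0.0452) and of -0.09 without CTTN 3 (0.511). The long transcripts of the coactivators EP300, in a row shared with a neighbour, and CREBBP showed the reverse order, with EP300 at 7.91, 16.2 and 4.46 FPKM in the CTTN libraries and 14.6, 16.0 and 17.5 FPKM in the controls, and log2 fold changes of -0.68 and -0.56 that were 0.04 and 0.01 with CTTN 2 alone. Without CTTN 3 they were -0.36 and -0.32, and without CTTN 2 -1.26 and -0.97, with adjusted p of 0.00233 and 0.00204 in edgeR.

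ARNT, the shared beta subunit, was at 18.1, 24.3 and 14.8 FPKM in CTTN 1 to 3 and at 14.8, 15.2 and 16.0 FPKM in the controls. It was highest in CTTN 2, the library nearest to the controls in make-up. The log2 fold change was 0.34 ± 0.13 (SE; adjusted p of 0.147 in edgeR), and it was called without CTTN 3 (0.47, 0.0133), with CTTN 2 alone (0.58, 2.04e-09) and with length offsets (0.58, 0.000266). Without CTTN 2 it was 0.20 and not called (0.129). EGLN1, the main oxygen-sensing prolyl hydroxylase, was at 16.1, 16.9 and 14.9 FPKM in the CTTN libraries and 19.6, 19.2 and 19.7 FPKM in the controls, without overlap. Its log2 fold change was -0.25 ± 0.07 (SE; adjusted p of 0.0925 in edgeR), -0.31 with CTTN 2 alone (0.00295), -0.24 without CTTN 2 (0.0342) and -0.05 with length offsets (0.763).

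Of the remaining partners edgeR called none with all libraries. EGLN2, in a row shared with neighbouring genes, had a log2 fold change of 0.04, HIF1AN, which hydroxylates the activation domain of HIF, of -0.24 (-0.08 without CTTN 3, and -0.42 without CTTN 2 with an adjusted p of 0.0211 in edgeR), and the coactivator competitor CITED2 of 0.11. The ubiquitin ligases SIAH1 and SIAH2 were at -0.02 and 0.17. ARNT2 and HIF3A stayed at or below 0.0985 and 0.321 FPKM in every library, with log2 fold changes of 0.14 and -0.27.

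Further HIF targets outside the members came from 3 lists of 51 genes, of which 49 passed the filter. In edgeR 2 of these were called higher (ANGPTL4 and PLOD1) and 2 lower (DDIT4 and BHLHE40), against 2.43% and 2.03% of all genes tested. Of the 20 genes of glucose uptake and glycolysis, 0 were called in edgeR and 0 in limma. At an unadjusted p below 0.05 there were 8 (6 higher and 2 lower), against 16.2% and 14.0% of all genes. PFKL and SLC16A3 were called higher in DESeq2 (against 6.94% of its genes), in edgeR with length offsets (adjusted p of 0.0128 and 0.0115, against 9.86%), and with CTTN 2 alone (0.0243 and 0.0407, against 7.53%). The median log2 fold change of the list was 0.10, against 0.01 over all genes, and 0.06 with length offsets, with a range from -0.40 (PFKFB3) to 0.40 (TPI1). The most abundant, GAPDH, was at 5768, 4604 and 6926 FPKM in CTTN 1 to 3 and 4505, 4644 and 4569.9 FPKM in the controls, and its log2 fold change of 0.26 was 0.15 without CTTN 3, 0.03 with CTTN 2 alone and called without CTTN 2 (0.36, adjusted p of 0.0116 in edgeR). ENO1 came next, at 2071, 1734 and 2403 FPKM against 1686, 1685 and 1642 FPKM. Its log2 fold change was 0.28 (adjusted p of 0.16 in edgeR) and 0.17 without CTTN 3 (0.224). Without CTTN 2 it was 0.37 (0.00863), in a fit that called 22.9% of all genes higher. With CTTN 2 alone it was 0.06, and with length offsets 0.13 (adjusted p of 0.0707 in edgeR).

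Of the 6 collagen-modifying targets 5 passed the filter, and PLOD1, a lysyl hydroxylase, was called higher in edgeR, against 2.43% of all genes. In DESeq2 PLOD1 was higher and PLOD2 lower, against 6.94% and 6.57% of its genes. The same held at an unadjusted p below 0.05 in edgeR, against 16.2% and 14.0% of all genes. The median log2 fold change of the list was -0.12, and 0.01 with length offsets. PLOD1 was at 53.5, 48.4 and 53.8 FPKM in the CTTN libraries and 39.3, 39.6 and 40.3 FPKM in the controls. The libraries within each group were close, and the log2 fold change was 0.35 ± 0.07 (SE; adjusted p of 0.044 in edgeR), 0.36 without CTTN 3, 0.33 with CTTN 2 alone and 0.42 with length offsets. Without CTTN 1 and without control 1, 2 or 3 it was no longer called, at adjusted p of 0.214, 0.208, 0.226 and 0.188 in edgeR. P4HA1, the most abundant of the list, was at 67.7, 64.5 and 63.5 FPKM against 74.7, 73.7 and 74.1 FPKM, with a log2 fold change of -0.12 (adjusted p of 0.328 in edgeR), -0.07 without CTTN 2 (0.489) and -0.27 with CTTN 2 alone (0.00346).

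Of the 25 other targets 24 passed the filter. In edgeR 1 was called higher and 2 lower, against 2.43% and 2.03% of all genes. The median log2 fold change of the list was -0.22, and -0.14 with length offsets. Of these 24, 16 had a negative fold change and 8 a positive one, against 7082 and 7327 of all 14409 genes tested. Counted at an unadjusted p below 0.05, 3 were higher and 11 lower, against 16.2% and 14.0% of all genes. DESeq2 called 3 higher and 6 lower (6.94% and 6.57% of its genes), limma 0, and edgeR with length offsets 4 higher and 7 lower (9.86% and 8.54%). Without CTTN 3 there were 2 higher and 5 lower (4.56% and 3.99% of all genes), and with CTTN 2 alone 3 higher and 9 lower (7.53% and 7.4%). ANGPTL4, a secreted inhibitor of lipoprotein lipase that also responds to PPAR factors, was at 4.35, 2.09 and 4.84 FPKM in CTTN 1 to 3 and at 0.709, 0.995 and 0.762 FPKM in the controls. Each CTTN library was above each control, and the log2 fold change was 2.16 ± 0.28 (SE; adjusted p of 0.0123 in edgeR), 1.99 without CTTN 3, 1.495 with CTTN 2 alone and 2.01 with length offsets. Left without CTTN 1 or control 1, 2 or 3, ANGPTL4 had adjusted p of 0.0769, 0.0855, 0.0835 and 0.0967 in edgeR.

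DDIT4, an inhibitor of mTORC1 that hypoxia induces, was at 136, 124 and 146 FPKM in CTTN 1 to 3 and at 207, 186 and 176 FPKM in the controls. Its log2 fold change was -0.48 ± 0.09 (SE; adjusted p of 0.0392 in edgeR), -0.53 without CTTN 3, -0.56 with CTTN 2 alone and -0.65 with length offsets, and its transcripts are short (1651 bases). Without CTTN 1 and without control 1, 2 or 3, DDIT4 had adjusted p of 0.198, 0.172, 0.178 and 0.137 in edgeR. The repressor BHLHE40 was at 13.8, 15.5 and 13.5 FPKM against 21.2, 19.4 and 19.8 FPKM, with a log2 fold change of -0.51 ± 0.11 (SE; adjusted p of 0.0498 in edgeR, and 0.0502 with DESeq2's size factors). It was -0.42 without CTTN 3, -0.32 with CTTN 2 alone and -0.38 with length offsets, and its call was lost with isoform counts summed by symbol (0.0595). For BHLHE40 the same 4 omissions gave 0.212, 0.2, 0.22 and 0.208 in edgeR. TFRC, the transferrin receptor and the most abundant of this list, was at 324, 418 and 246 FPKM against 461, 492 and 504 FPKM, and its log2 fold change of -0.53 was not called (adjusted p of 0.0827 in edgeR) but was without CTTN 2 (-0.68, 0.00247), without CTTN 3 (-0.39, 0.0351), with CTTN 2 alone (-0.28, 0.00133) and with length offsets (-0.26, 0.00309). Without CTTN 3, ANGPTL4, PLOD1, DDIT4, BHLHE40 and CUL2 were all called. Like CA12, all 5 lost their calls in limma on FPKM and with the replicate block described below. With no filter on low counts and with isoform counts summed by symbol, CUL2 (adjusted p of 0.0581 and 0.0589 in edgeR) and PLOD1 (0.0691 and 0.0519) lost theirs too.

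**Figure D5:**
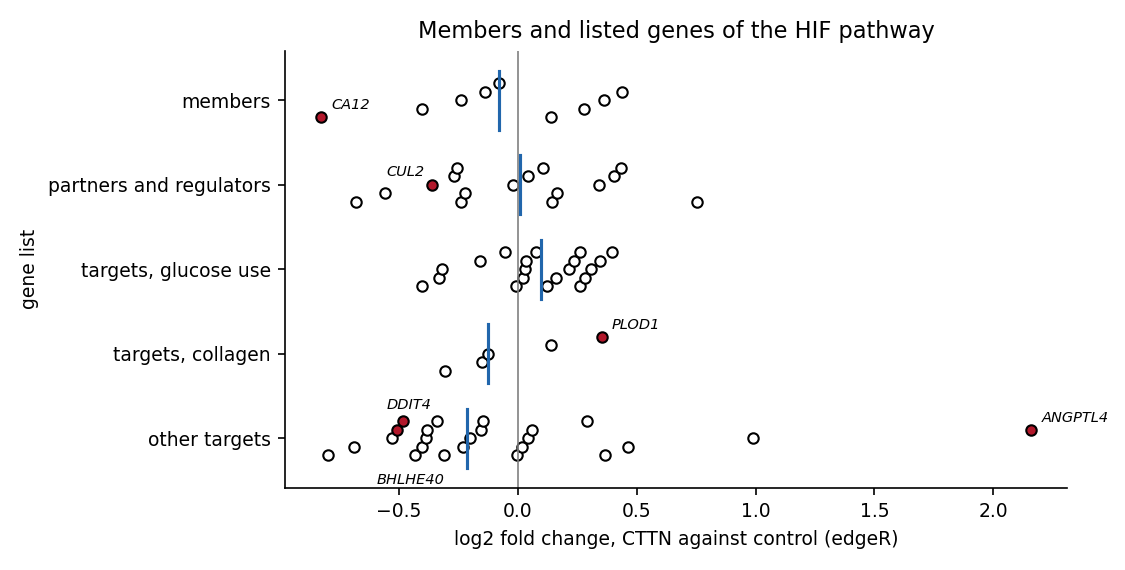
Log2 fold change of CTTN against control (horizontal axis) for the tested members and the tested genes of 4 lists of the HIF pathway (vertical axis). Each point is a gene, filled and named where edgeR's adjusted p was below 0.05, and the blue line is the list's median, from -0.22 in the other targets to 0.10 in the targets of glucose use.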

How the data were processed

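Per the labels and the study's methods, polyA mRNA libraries were sequenced on an Illumina instrument. The submitters' processing notes name bcl2fastq 2.20.0, Trimmomatic, STAR and Cufflinks and build GRCh38, which the deposited loci follow, while the published methods name another trimmer and build. The estimated counts deposited by the authors are fragments per gene, start-site group or isoform divided by a library scale. The FPKM values were deposited by the authors beside them. The counts were multiplied by that scale (whole at gene level to within 0.01 or the printed digits) and rounded. edgeR 4.0.16 was run with TMM, filterByExpr and the quasi-likelihood test, with Benjamini-Hochberg adjustment over all features kept, and was tested on simulated data. The simulated data had no trend with length and the same dispersion in both groups. They therefore say nothing on calls under the length trend and wider CTTN spread seen here. SE and intervals come from edgeR's F statistics. limma 3.58.1 and DESeq2 1.42.0 were run as alternatives, under R 4.3.3. Transcript length is the mean of isoform lengths weighted by FPKM. Control libraries are numbered as in the deposited library table, since the labels number them differently.

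The members and lists were chosen with earlier results of these data known. Named genes are the members, CTTN, all listed partners and regulators and, of each other list, the called genes (at most 4 in each direction) and the 2 with the highest FPKM. Other genes, such as CDH5, TPI1 or KRT19, were named after their values were seen. 1 listed gene is not reported here and was taken out of its list after the fits. The coding-sequence tables were not used.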

Additional observations from a re-analysis of the deposited data

How the results depend on the processing

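With all libraries 350 genes were higher and 293 lower. These counts were 346 and 291 with DESeq2's size factors, and 539 and 437 with no filter. With isoform counts summed by symbol, a fit that was not planned, they were 251 and 218. DESeq2 gave 959 and 908, limma on log2(FPKM + 1) gave 81 and 58, and limma on log2(FPKM + 0.1) gave 84 and 58. Leaving out 1 library gave 10 to 3366 higher and 5 to 3559 lower, most without CTTN 2 and fewest without a control. Without CTTN 3 they were 668 and 584. In fits chosen after seeing the data they were 1137 and 1118 with CTTN 2 alone, and 1421 and 1230 with length offsets. Start-site groups gave 0 and 0 with all libraries and in the planned fits, and 2 and 2 with CTTN 2 alone.

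With a replicate block on the numbers of the library table, 51 genes were higher and 54 lower. CA12 was at -0.85 with an adjusted p of 0.0725 in edgeR. The calls of CTTN, CUL2, PLOD1, ANGPTL4, DDIT4, BHLHE40 and NDRG4 were lost too. Their adjusted p was 0.0588, 0.131, 0.13, 0.054, 0.114, 0.113 and 0.0957 in edgeR with this block. Same-numbered libraries deviated together at correlations of 0.0231, 0.08 and -0.191. Pairs with different numbers ran from -0.262 (CTTN 2 with control 1) to 0.242 (CTTN 3 with control 1). The labels number the controls differently, so the pairs are uncertain, and no pairing is read from the numbers.

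CA12 was at -1.03 and -1.06 in limma with pseudocounts of 1 and 0.1 (adjusted p of 0.112 and 0.114), and at -0.98 to -0.69 with 1 library left out. Its call held in 8 of 15 alternatives. Of these, CTTN 2 alone, length offsets and isoform counts summed by symbol were not planned. Another, without CTTN 2, called 22.9% of all genes higher and 24.2% lower.

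Among the genes named by the rule, changes of sign were in genes not called with all libraries. With CTTN 2 alone these were EPAS1 (0.192), ANKRD37 (-0.14), EGLN2 (-0.166), HIF1AN (0.0447), ELOC (-0.0422), RBX1 (-0.129), EP300 (0.0378), CREBBP (0.0103) and SIAH2 (-0.00749). With length offsets they were EPAS1 (0.0881), BNIP3L (0.0394), ANKRD37 (-0.0298), EGLN2 (-0.068), HIF1AN (0.187), GAPDH (-0.00125), CA5B (-0.0131) and BNIP2 (0.0121). EPAS1 was at 0.081 and 0.0819 in limma with pseudocounts of 1 and 0.1. With 1 library left out, the range was -0.345 to 0.0219 for EPAS1, -0.169 to 0.387 for ARNT2, -0.0726 to 0.128 for EGLN2, -0.0919 to 0.0196 for SIAH1 and -0.0254 to 0.0975 for NDRG3. The cause of these changes was not tested. The depth leaves CA9, with at most 10 fragments in a library, without a usable fold.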

Other observations

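In 3 lists of relatives and receptors of the members, NDRG4 was the only gene called in edgeR. Of the 7 NDRG and BNIP relatives, all passed the filter, with 1 higher and 0 lower, against 2.43% and 2.03% of all genes, and a median log2 fold change of 0.38, which was 0.10 with length offsets. At an unadjusted p below 0.05 there were 3 higher (NDRG4, BNIP1 and FUNDC1) and 1 lower (NDRG2), against 16.2% and 14.0%. DESeq2 called NDRG4 higher and NDRG2 lower, against 6.94% and 6.57% of its genes. So did edgeR with length offsets, against 9.86% and 8.54% of all genes, and without CTTN 3, against 4.56% and 3.99%. NDRG4 was at 3.22, 2.59 and 3.97 FPKM in CTTN 1 to 3 and at 2.56, 2.24 and 3.02 FPKM in the controls, which overlapped on this scale but not in CPM. Its log2 fold change was 0.62 ± 0.10 (SE; adjusted p of 0.026 in edgeR), 0.60 without CTTN 3, 0.66 with CTTN 2 alone and 0.55 with length offsets. In limma with pseudocounts of 1 and 0.1 it was 0.23 and 0.30, and not called (adjusted p of 0.325 and 0.326). Without CTTN 1 and without control 1, 2 or 3 its adjusted p was 0.119, 0.144, 0.132 and 0.15 in edgeR. NDRG3 and BNIP2, the most abundant of the list, had log2 fold changes of 0.03 and -0.08.

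Of the 13 other carbonic anhydrases, 5 passed the filter and 0 were called in edgeR. At an unadjusted p below 0.05 there were 2, CA2 and CA11, both higher, where 16.2% of all genes were, and DESeq2 called CA11 higher, against 6.94% of its genes. CA11 was at 9.66, 4.53 and 9.79 FPKM in the CTTN libraries and 4.20, 2.48 and 3.37 FPKM in the controls. Its log2 fold change was 0.82 ± 0.25 (SE), with an adjusted p of 0.101 in edgeR. Without CTTN 2 it was 0.998 (adjusted p of 0.00523 in edgeR, in a fit that called 22.9% of all genes higher). It was 0.40 with CTTN 2 alone and 0.50 with length offsets (adjusted p of 0.0919 in edgeR). CA5B, in a row shared with the pseudogene CA5BP1, had a log2 fold change of 0.16. The receptor of adrenomedullin was close to absent in every library: none of CALCRL, RAMP1, RAMP2 and RAMP3 passed the filter, the most abundant, RAMP2, stayed at or below 0.219 FPKM, RAMP1 at or below 0.217 FPKM, and RAMP3 was listed at 0 throughout.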
